A study of Mus musculus with 4 samples.

Results

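Leydig cells, the androgen-producing cells between the seminiferous tubules, were chosen by a marker gate from single-cell RNA counts of whole mouse testis. A barcode entered the gate if it had at least 500 detected genes, at most 10% of its UMI on mitochondrially encoded genes, and UMI for at least 4 of 7 steroid and hormone genes that together made up at least 1% of its UMI. The 7 gate genes were Cyp17a1, Cyp11a1, Star, Hsd3b1, Hsd3b6, Insl3 and Hsd17b3. Of 32273 barcodes, 29968 met the limits on genes and mitochondrial share, and 307 of these (1.02%, exact Clopper-Pearson 95% interval 0.914% to 1.14%) passed the gate. A UMI, or unique molecular identifier, tags 1 captured RNA molecule, so values below are UMI of a gene per 1000000 UMI of the gate (CPM), summed over its barcodes and not scaled by gene length.

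The study prepared testicular cells from C57BL/6 mice at postnatal day 63, with 2 samples of genotype Phf7 f/f and 2 of Phf7 tKO, the latter carrying Stra8-Cre:Phf7 f/f. Both genotypes hold the floxed Phf7 allele, and Stra8-Cre is a driver that acts in male germ cells. Cells were freed with collagenase A, DNase I and trypsin, strained, cleared of red cells and captured with a Chromium 3′ kit. The 4 samples were deposited as a single matrix whose barcodes end in a suffix from 1 to 4, and the labels do not say which sample or genotype a suffix stands for. The matrix was therefore 1 pooled sample without a genotype comparison, and no suffix was assigned from its Phf7 level. The suffixes, which mark input libraries in tables of this kind, are given side by side as unassigned libraries. No test was run on this pooled sample, neither between genotypes nor between gates, and intervals cover counting error only.

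Leydig cells make testosterone from cholesterol. Luteinizing hormone acts on the receptor Lhcgr, cyclic AMP rises, and STAR carries cholesterol into the mitochondrion. There CYP11A1, fed with electrons by FDX1 and FDXR, cuts the side chain to give pregnenolone, and the endoplasmic reticulum enzymes HSD3B, CYP17A1 and HSD17B3 complete the path to testosterone. Adult Leydig cells also secrete INSL3, a peptide used as a measure of how mature they are. The transcription factor NR5A1 (SF-1) drives many of these genes.

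The gate held 74, 47, 97 and 89 barcodes under suffixes 1 to 4, which were 0.966%, 0.675%, 1.31% and 1.12% of each suffix's kept barcodes. The share under suffix 2 was the lowest and its interval (0.497% to 0.897%) lay below those under suffixes 3 and 4. These shares depend on Insl3, which counts toward the limit of 1% and was low under suffix 1, where the limit was therefore stricter. Without Insl3 as a gate gene, an alternative chosen after seeing the data, the gate held 68, 28, 63 and 69 barcodes. In all, the gate of 7 genes held 2178432 UMI, from 331545 under suffix 2 to 718877 under suffix 4. The median Leydig barcode had 7546 UMI, 2713 genes and 7.15% mitochondrial UMI. Gates built the same way held 1250 Sertoli, 256 macrophage and 169 interstitial mesenchymal barcodes, with medians of 1004.5, 2414.5 and 2418 UMI. Leydig barcodes were thus the deepest of the 4 gates, and the deeper gate detects more genes per barcode. No barcode sequence was shared between suffixes within the Leydig gate, although 497 sequences occurred under more than 1 suffix in the whole matrix and 7 Leydig barcodes were among them.

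Because the gate genes chose the barcodes, their high level in the gate is no finding. Among the 307 barcodes, 139 had all 7 genes, 117 had 6, 30 had 5 and 21 had 4, and the gate genes made up a median of 1.47% of UMI, with a highest value of 3.35%. The 29 barcodes just inside the limit (under 1.1%) had 1978 CPM of Fdx1 and 84.3 CPM of Lhcgr, both outside the gate. The 22 barcodes just outside (0.9% to 1%, 4 or more gate genes) had 1736 CPM of Fdx1 and 115 CPM of Lhcgr. A further 54 barcodes met the gene rule but had more than 10% mitochondrial UMI.

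Markers of other testis cells were low but differed in kind. The 7 macrophage gate genes summed to 0.0192% of Leydig UMI, against 2.94% in the macrophage gate. The 7 mesenchymal gate genes summed to 0.0207%, against 2.30% in the mesenchymal gate. Col1a1 and Lum were at 0, and the other 5 had 50 or more Leydig UMI each. Of the 8 genes of the peritubular myoid list, Myh11, Tagln, Cnn1 and Des were at 0. The list took 0.0198% of Leydig UMI, with 3 genes at 50 or more UMI. Against Sertoli barcodes 1 was higher and 2 lower of 3 tested. The counts were 1 and 1 of 3 against macrophages, and 1 and 3 of 4 against mesenchymal barcodes. The Sertoli gate genes made up 0.305%, led by Defb19 (1289 CPM), Clu (1217 CPM) and Ctsl (320.4 CPM), while the Sertoli cystatins Cst9 and Cst12 stood at 5.05 and 3.21 CPM. The log2 ratio of Defb19 to the Sertoli gate was -0.21, close to 0. RNA of elongating spermatids was present throughout: its 7 gate genes took 0.729% of Leydig UMI, and by suffix 1.02%, 0.464%, 0.547% and 0.841%. Every Leydig barcode held Prm2, and 7 Leydig barcodes also passed the elongating spermatid gate (5% or more of UMI), whereas none passed any other gate. Whether the spermatid RNA came from free RNA in the suspension or from attached cells was not tested.

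The levels of the 7 gate genes were similar under the 4 suffixes, apart from Insl3. The limit of 1% on their sum holds these levels up in every suffix, so their evenness is partly set by the rule. Cyp17a1, whose enzyme turns progestogens into androgens, was the most abundant with 5524, 4126, 4320 and 4749 CPM under suffixes 1 to 4. Hsd3b6, the adult Leydig form of 3β-hydroxysteroid dehydrogenase, had 4260, 3803, 3574 and 4258 CPM. Its paralog Hsd3b1 had 445, 413, 647 and 437 CPM, and because the 2 genes are close copies their split depends on how reads were assigned. Cyp11a1 had 2196, 1825, 2478 and 2209 CPM. Hsd17b3, which makes testosterone from androstenedione, had 916, 947, 1000 and 818 CPM, and Star had 914, 661, 769 and 835 CPM. For these 6 genes the highest suffix was at most 1.57 times the lowest, the ratio of Hsd3b1. In the gate drawn without Insl3, Cyp17a1 had 5712, 5120, 5129 and 5331 CPM.

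**Figure D1:**
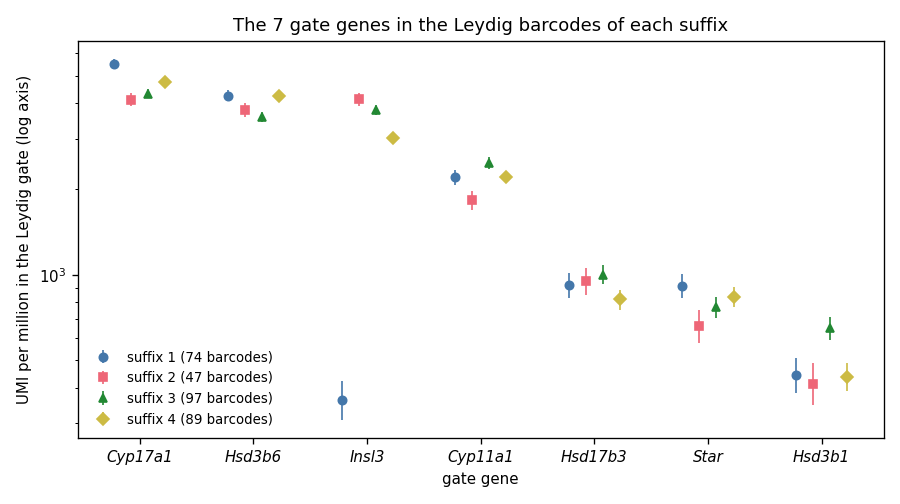
CPM (log axis) of the 7 gate genes in the Leydig barcodes of each suffix, with exact Poisson 95% intervals as bars. The other 6 genes keep close to their own level, while Insl3 under suffix 1 (362) lies far below the other suffixes (3024 to 4141).

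Insl3, at chr8:71689214-71690575 on the plus strand of GRCm38, had 362 CPM under suffix 1 (95% interval 308 to 422), 4141 under suffix 2, 3791 under suffix 3 and 3024 under suffix 4. Suffix 1 stood apart by a factor of 11.5 from the highest, and the other suffixes differed by a factor of 1.37. The low value was spread over the cells of suffix 1 and did not rest on a few. Among barcodes thinned to 5000 UMI, the median was 1 Insl3 UMI in the 52 barcodes of suffix 1, against 21, 19 and 15 UMI under suffixes 2, 3 and 4. The highest barcode of suffix 1 had 9 UMI, and the 10th percentiles of the other suffixes were 14.1, 10 and 8.8 UMI. Because Insl3 is a gate gene, the gate was also drawn on the other 6 genes alone (chosen after seeing the data), which gave 68, 28, 63 and 69 barcodes and Insl3 levels of 350, 4066, 3691 and 3040 CPM. Kept barcodes outside the Leydig gate, most of them germ cells, had 1.87, 7.55, 7.06 and 8.73 CPM, also lowest under suffix 1. They include 131 barcodes with 4 or more gate genes that missed the limit of 1%, with 9762 CPM of Ptgds. These levels are therefore not a separate measure in germ cells. The labels give neither the genotype nor the batch of suffix 1, so the part of either in this difference was not tested.

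The upstream sequence of Insl3 is shown because Insl3 is the gate gene that differs, and because promoters of this kind are known to carry NR5A1 sites. It lies at chr8:71689002-71689213 in GRCm38.p6 and is given from RefSeq on the gene's strand, 5′ to 3′.
Insl3: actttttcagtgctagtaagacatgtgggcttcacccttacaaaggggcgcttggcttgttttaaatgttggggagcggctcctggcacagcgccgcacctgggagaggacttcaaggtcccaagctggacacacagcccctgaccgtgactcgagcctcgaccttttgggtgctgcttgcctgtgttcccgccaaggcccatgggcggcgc
The NR5A1 binding motif was searched as CAAGGNCA on both strands of RefSeq promoter windows running from 250 bases before to 50 bases after each start. Of 32851 windows, 6.709% held it. None of the 5 gate genes with a window had a match (Cyp11a1, Hsd3b1, Hsd3b6, Insl3 and Hsd17b3), which says only that these letters are absent from these windows.

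To place the rest of the Leydig transcriptome, the gate was compared with the Sertoli, macrophage and interstitial mesenchymal gates. A gene was called higher or lower if the pooled levels differed at least 2-fold and in the same direction in all 4 suffixes, among genes with 50 or more UMI over both gates. Against Sertoli barcodes 26.8% of 7841 genes were called higher and 35.5% lower. Against macrophages the shares were 24.5% and 24.7% of 6651 genes, and against mesenchymal barcodes 17.2% and 19.5% of 6206 genes. The median log2 ratio over all genes was -0.23, 0.06 and -0.13 in the same order. The lists below are read against these shares, and log2 ratios carry exact conditional binomial 95% intervals.

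Genes that partner the steroid enzymes were mostly higher. Of the 7 redox partners, 5 were higher and 1 lower than in Sertoli barcodes, 6 higher and none lower than in macrophages, and 5 higher and none lower than in mesenchymal barcodes, with list medians of 2.63, 2.14 and 1.79 log2. Fdx1, the ferredoxin of the mitochondrial P450 enzymes, had 1990, 2341, 1954 and 1879 CPM by suffix, 4.10 log2 above Sertoli, 5.09 above macrophage and 3.97 above mesenchymal barcodes. Its reductase Fdxr had 402, 395, 393 and 360 CPM. Por, the reductase that feeds CYP17A1, was far lower in UMI, at 68.9 CPM, and was 2.88 log2 above Sertoli barcodes. Cyb5a, the cytochrome b5 that favours the androgen-forming step of CYP17A1, had 489 CPM and was called higher only against macrophages, a call lost with at most 5% mitochondrial UMI (0.78 log2). Among these partners the level of Fdx1 stood out and was even across suffixes.

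Leydig genes outside the gate were called higher almost throughout: 15 of 16 measured genes against Sertoli barcodes, and 16 of 16 against each of the other gates. The list was drawn up as Leydig genes, and 16 of its 17 had 50 or more UMI in the Leydig gate alone. High counts were therefore to be foreseen, and they are a description and no separate support for the gate. The exception was Inha, the inhibin α subunit, with 176 CPM and a log2 ratio of -1.99 to Sertoli barcodes, where it is also made. Ptgds, a prostaglandin D synthase and lipid carrier, had 10574, 12083, 14312 and 14971 CPM. Aldh1a1, a retinaldehyde dehydrogenase, had 2899, 3535, 2620 and 3212 CPM. Vcam1, an adhesion protein, had 1195, 1131, 1352 and 1468 CPM. In the other gates Ptgds reached 665 CPM in Sertoli barcodes and 34.4 and 29.3 CPM in macrophage and mesenchymal barcodes, so no Leydig suffix overlapped with them.

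Adrenal cortex genes, which share enzymes with the Leydig pathway, were almost absent apart from Mrap. Mrap, the accessory protein that carries the ACTH receptor to the membrane, had 508, 642, 437 and 577 CPM and was 7.73, 7.46 and 4.76 log2 above Sertoli, macrophage and mesenchymal barcodes. The receptor itself, Mc2r, had 0 of 2178432 UMI, as did Cyp11b1 and Cyp11b2, the enzymes of the last steps to corticosterone and aldosterone. A count of 0 in the gate allows a level of up to 1.38 CPM (3 counts). Cyp21a1 had 32 UMI in the gate (14.7 CPM) and Nr0b1, a repressor of NR5A1, 13 UMI. In the androgen list, which covers enzymes after testosterone and related hydroxysteroid dehydrogenases, 6 of 7 tested genes were higher than in Sertoli barcodes, 5 higher and 1 lower than in macrophages, and 4 of 7 higher than in mesenchymal barcodes. Hsd17b10 led it with 470 CPM. The 5α-reductases were scarce, with 29 UMI of Srd5a1 and 43 UMI of Srd5a3. Sult1e1, the estrogen sulfotransferase, had 283, 187, 335 and 287 CPM and was 7.84 log2 above Sertoli barcodes.

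Cholesterol for steroids can be made in the cell or taken up. All 23 genes of the synthesis list were tested, and 19 were higher than in Sertoli barcodes, 23 higher than in macrophages and 21 higher than in mesenchymal barcodes, with none lower in any gate. The list medians were 3.02, 3.44 and 2.53 log2. Msmo1, a C4 sterol oxidase, had 382, 353, 306 and 396 CPM. Fdps, which makes farnesyl diphosphate, was more uneven, with 229, 413, 415 and 474 CPM, lowest under suffix 1. Among the genes not called against Sertoli barcodes were Fdft1, the squalene synthase gene (log2 ratio -0.23), Idi1 (0.39) and Ebp (0.69). Fdft1 was called against macrophages at 1.08 log2, and without suffix 1 or 4, or with at most 5% mitochondrial UMI, it was not (0.96, 0.89 and 0.64). Sertoli barcodes carried more spermatid RNA than Leydig barcodes, 3.67% against 0.729% of UMI for the 7 elongating spermatid gate genes, and the part of this in the ratios was not tested.

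**Figure D2:**
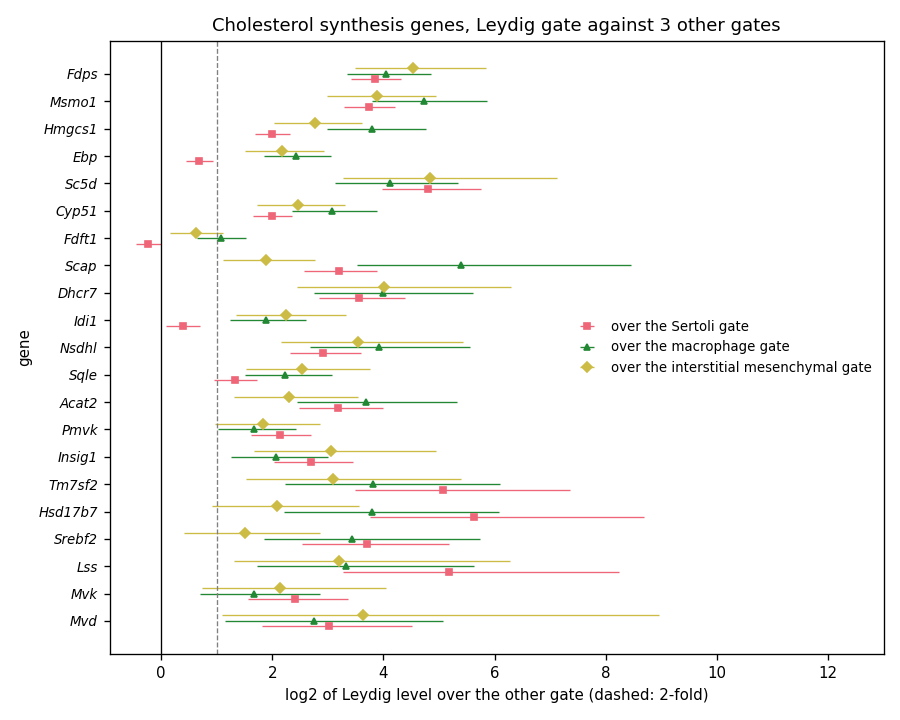
Log2 ratio of the Leydig level to that in the Sertoli, macrophage and interstitial mesenchymal gates for 21 of the cholesterol synthesis genes, in order of Leydig level, with exact conditional binomial 95% intervals as bars. Nearly all points lie to the right of the dashed 2-fold line, and Fdft1 against Sertoli barcodes (-0.23) is left of 0.

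Uptake, storage and transport genes were mixed. Of 17 tested, 10 were higher and 1 lower than in Sertoli barcodes, 8 higher and 4 lower than in macrophages, and of 16 tested against mesenchymal barcodes 6 were higher and 2 lower. Scarb1, the high-density lipoprotein receptor, had 182, 244, 280 and 232 CPM and was higher in all 3 comparisons (2.01, 2.99 and 3.61 log2). Soat1, which esterifies cholesterol for storage, had 199 CPM, and the exporter Abca1 344 CPM. Apoe, at 1939 CPM, was 5.45 log2 above Sertoli barcodes but 3.28 log2 below macrophages (-3.28), where it is abundant. Tspo, an outer mitochondrial membrane protein long linked to steroid synthesis, had 293 CPM and was called higher only against Sertoli barcodes (1.45 log2).

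The receptor of luteinizing hormone was marked by few molecules per cell. Lhcgr had 98.8, 121, 125 and 153 CPM, a total of 279 UMI over 307 barcodes. It was 7.68 log2 above the Sertoli gate, where only suffix 4 held it (2.67 CPM). In the macrophage and mesenchymal gates it had 0 UMI. With that 0 set to 3 counts, it was 4.83 and 4.13 log2 above them, values set by the depth of those gates. Of the LH and cyclic AMP list, 3 were higher and 4 lower of 10 against Sertoli barcodes, 5 and 2 of 9 against macrophages, and 2 and 2 of 9 against mesenchymal barcodes, with medians of -0.35, 1.28 and 0.29 log2. Gnas, the stimulatory G protein subunit, led it with 1542 CPM. Prkar2a and Crem were lower than in all 3 gates. These gates carried more spermatid RNA than Leydig barcodes. The 7 elongating spermatid gate genes took 3.67%, 1.82% and 1.37% of their UMI, against 0.729%. The part of this in the ratios of Prkar2a and Crem was not tested. Prkar2a, a regulatory subunit of protein kinase A, had 59.2 CPM and log2 ratios of -1.85, -1.23 and -1.31, and without suffix 1 it was not called against mesenchymal barcodes (-0.96). With at most 5% mitochondrial UMI it was called against none of the 3 gates (-0.69, -0.09 and -0.15), and against macrophages its call was also lost with gate genes at 0.5% (-0.97) and with equal weight for each barcode (-0.80). Crem lost its calls against macrophages and mesenchymal barcodes at 5% (-0.61 and -0.54), and that against mesenchymal barcodes with equal weight (-1.26, not the same direction in every suffix). Without suffix 3, 3 genes in place of 5 were higher than in macrophages: Pde8a stood at 0.86 log2, and Adcy9, at 1.78 log2, fell under the minimum of 50 UMI.

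Prlr, the prolactin receptor, was the most abundant of the other receptors with 950, 881, 873 and 896 CPM, and was 7.68, 7.64 and 2.54 log2 above the 3 gates. Esr1 had 79.0 CPM, and Igf1r 142 CPM. Kit, better known as the receptor of spermatogonia and mast cells, had 89.8, 151, 123 and 110 CPM. It was 7.54 and 5.57 log2 above Sertoli and mesenchymal barcodes, which held 1 UMI each. Against macrophages, where 0 UMI was set to 3 counts, it was 4.69 log2 higher. Of the list, 8 were higher and 1 lower of 10 against Sertoli barcodes, 7 and 3 of 11 against macrophages, and 3 and 3 of 10 against mesenchymal barcodes. Pdgfra, a progenitor receptor, was 3.46 log2 below mesenchymal barcodes (-3.46).

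Nr5a1 was the most abundant transcription factor of its list, with 164, 202, 193 and 166 CPM, and was 3.12, 5.32 and 3.62 log2 above the 3 gates. Gata4, also made by Sertoli and mesenchymal cells, had 47.7 CPM and was called higher only against macrophages (3.99 log2). Over the list, 6 were higher and 3 lower of 13 against Sertoli barcodes, 4 and 3 of 9 against macrophages, and 1 and 4 of 11 against mesenchymal barcodes. Without suffix 3, 1 gene in place of 4 was lower than in mesenchymal barcodes. Among those no longer called, Nr2f2 stood at -0.83 log2, while Hes1 (-2.96) fell under the minimum of 50 UMI. Nr4a1, an immediate early nuclear receptor that cyclic AMP induces, was uneven with 35.9, 9.05, 61.5 and 11.1 CPM, from 69 UMI in all. Leydig progenitor and fetal Leydig genes took 0.0171% of Leydig UMI. All 6 tested against mesenchymal barcodes were lower (median -3.19 log2). Only 3 of the 11 genes had 50 or more Leydig UMI, so the others reached the minimum with mesenchymal counts. The 3 tested against Sertoli barcodes and the 3 against macrophages were higher (4.16 and 2.90 log2). The whole list took only 0.00219% and 0.00240% of UMI there. These 3 thus met the minimum of 50 UMI through Leydig counts, which set their direction. Nes, Thy1, Thbs2, Hsd17b1 and Mc2r were at 0 UMI. Tcf21, a factor of interstitial progenitors, had 33.5 CPM and a log2 ratio of -2.92 to mesenchymal barcodes.

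Of 11 tested genes of the secreted factors list, 8 were higher and 2 lower than in Sertoli barcodes, 8 and 2 than in macrophages, and 6 and 5 than in mesenchymal barcodes. To find what else was high in Leydig barcodes, genes outside the gate were ranked by the ratio of the Leydig level to the highest level in the other 3 gates, with a 0 set to 3 counts. Of 1697 genes with 200 or more Leydig UMI, 657 were above all 3 gates in every suffix, and 62 exceeded 10 times. The 25 with the highest ratios ranged down to 23.7 times. This ranking is a description, because the gate chose the cells.

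Lcn2, a lipocalin that binds iron-carrying siderophores, was first. It had 12607, 12258, 19955 and 16848 CPM by suffix, an average of 115 UMI per barcode, and was found in 99.7% of Leydig barcodes, against 7.81% of macrophage barcodes. With every barcode thinned to 1000 UMI the shares were 99.3% and 4.12%. It reached 45.0 CPM in the Sertoli gate, the highest of the others, a ratio of 362. Only mt-Co1 and Malat1 were more abundant in the gate. The uncharacterized gene 1110008P14Rik, which neighbours Lcn2 on chromosome 2, had 2061, 2226, 2200 and 2258 CPM and a ratio of 37.6. The 2 genes are both on the minus strand, at chr2:32384633-32388252 and chr2:32377097-32381938. Agt, the angiotensin precursor, had 1848, 2093, 2549 and 2457 CPM. Igfbp2 had 292, 281, 283 and 278 CPM, and Apln, the apelin precursor, 110, 151, 127 and 104 CPM.

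**Figure D3:**
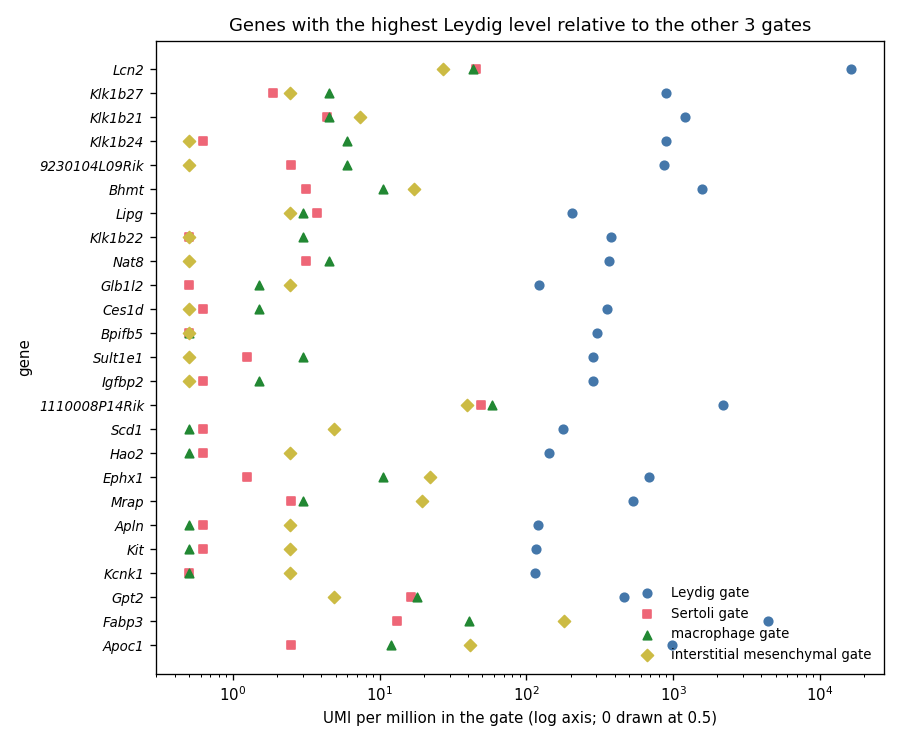
CPM (log axis, 0 drawn at 0.5) of the 25 leading genes in the Leydig, Sertoli, macrophage and interstitial mesenchymal gates. The Leydig points lie to the right of all others by at least 23.7 times, and Lcn2 (16256) and Fabp3 (4417) are the most abundant.

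Tissue kallikreins, serine proteases of a close mouse family, gave 4 of the 25 leading genes. Klk1b27 had 766, 706, 940 and 1004 CPM, Klk1b21 had 1006, 1053, 1348 and 1251 CPM, Klk1b24 had 847, 784, 918 and 938 CPM, and Klk1b22 had 323, 434, 362 and 396 CPM. In the other gates each had at most 7.32 CPM. Their copies are so alike that the split of UMI among them is uncertain. All lie within 1 cluster on chromosome 7, on the plus strand, with gene starts at 44052290 (Klk1b27), 44102328 (Klk1b21), 44112673 (Klk1b22) and 44188236 (Klk1b24) in GRCm38.

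The upstream sequences of the 4 kallikreins are shown because kallikreins were 3 of the 4 leading genes whose window matched the NR5A1 motif, and because the copies can be read against each other. All are from RefSeq, GRCm38.p6, plus strand, 5′ to 3′, with matches to CAAGGNCA or its reverse complement in capitals.
Klk1b27: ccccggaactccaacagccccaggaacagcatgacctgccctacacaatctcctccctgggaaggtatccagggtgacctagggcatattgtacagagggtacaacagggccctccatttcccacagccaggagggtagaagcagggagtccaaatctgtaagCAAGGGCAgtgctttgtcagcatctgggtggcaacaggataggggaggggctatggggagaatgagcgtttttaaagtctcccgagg
Klk1b21: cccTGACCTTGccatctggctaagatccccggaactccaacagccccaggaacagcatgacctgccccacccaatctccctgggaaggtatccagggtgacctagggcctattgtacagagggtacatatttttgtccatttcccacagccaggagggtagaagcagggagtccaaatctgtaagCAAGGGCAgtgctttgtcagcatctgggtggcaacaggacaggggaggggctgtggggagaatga
Klk1b24: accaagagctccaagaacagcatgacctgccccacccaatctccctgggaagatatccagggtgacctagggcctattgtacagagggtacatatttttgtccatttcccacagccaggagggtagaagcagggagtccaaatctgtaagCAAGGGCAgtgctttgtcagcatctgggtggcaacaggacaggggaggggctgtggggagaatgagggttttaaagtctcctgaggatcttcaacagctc
Klk1b22: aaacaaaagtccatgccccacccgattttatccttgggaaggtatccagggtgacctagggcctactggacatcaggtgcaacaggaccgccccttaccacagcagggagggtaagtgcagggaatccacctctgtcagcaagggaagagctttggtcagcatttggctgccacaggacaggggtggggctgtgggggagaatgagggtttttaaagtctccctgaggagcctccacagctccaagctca
These are chr7:44052040-44052289, chr7:44102042-44102291, chr7:44187986-44188235 and chr7:44112423-44112672, 250 bases each. Counted from the first base shown, matches start at base 164 in Klk1b27, at bases 4 (minus strand) and 186 in Klk1b21, and at base 151 in Klk1b24. An 89-base run around the plus-strand match is the same letter for letter in these 3 sequences, and Klk1b22 does not hold that run or the motif. Because the sequences are copies, the 3 matches count as 1 shared feature. Of the 25 leading genes 18 had a window and 4 held the motif, 3 kallikreins and Bhmt, against 6.709% of all windows. A match is not evidence of binding. Klk1b22, without a match, was also high in the Leydig gate and close to 0 elsewhere.

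Others of the leading genes encode enzymes and lipid carriers. Bhmt, which remethylates homocysteine with betaine, had 1534, 1484, 1690 and 1507 CPM and a ratio of 91.6. Fabp3, a fatty acid carrier, had 3860, 4678, 4777 and 4300 CPM. Lipg, an endothelial lipase, had 166, 250, 223 and 185 CPM. Ces1d, a carboxylesterase, had 362, 320, 350 and 367 CPM, and Ephx1, the microsomal epoxide hydrolase, 649, 851, 697 and 615 CPM. Scd1, a fatty acid desaturase, had 159, 169, 205 and 166 CPM. Bpifb5, a lipid-binding protein of the BPI family, had 328, 296, 286 and 306 CPM and 0 UMI in each of the other 3 gates, so at least 41.3-fold higher. The aldo-keto reductase Akr1cl, at 6948, 7082, 6512 and 6346 CPM, was among the most abundant genes, with 369 CPM in mesenchymal barcodes. For none of these named genes did the highest suffix reach 2 times the lowest. Nat8, another of the leading genes, did so with 469, 407, 227 and 417 CPM, a ratio of 2.07.

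Glutathione, antioxidant and detoxification genes took 3.21% of Leydig UMI. Of 31 tested, 17 were higher and 4 lower than in Sertoli barcodes, 24 higher and 1 lower than in macrophages, and 18 higher and 1 lower than in mesenchymal barcodes. The glutathione transferase Gstm1 had 11026, 10861, 10314 and 12414 CPM and was higher than in all 3 gates by 3.76, 5.37 and 1.76 log2. Gstm2 had 3387 CPM, Gsta3 925 CPM and the microsomal Mgst1 1749 CPM. Gstm and Gsta copies are alike, so their split is uncertain. Gpx4, the peroxidase of membrane lipids, had 2301 CPM and was called in no comparison (-0.49, 0.21 and 0.24 log2), and Gstm5 was lower than in Sertoli barcodes (-1.47), a call lost with at most 5% mitochondrial UMI (-0.83).

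Mitochondrially encoded transcripts took 7.04% of Leydig UMI, against 4.06% in Sertoli, 2.87% in macrophage and 3.01% in mesenchymal barcodes. The gate allowed at most 10%, so these shares are limited by the rule, and 54 further barcodes lay above it. Of 11 tested, 3 were higher than in Sertoli barcodes (0 with a limit of 20% mitochondrial UMI and 1 with at least 1000 genes), 8 higher than in macrophages and 9 higher than in mesenchymal barcodes, with none lower. With at most 5% mitochondrial UMI, a limit on these same transcripts, 2, 0 and 1 of 9 tested were higher than in the 3 gates, and with gate genes at 2% 5 of 9 were higher than in macrophages. Endoplasmic reticulum chaperones and stress genes were close to the other gates: of 15 tested 3 were higher and 2 lower against Sertoli barcodes, and 1 and 1 against macrophages. Hspa5, the main luminal chaperone, had 361 CPM and log2 ratios of 0.39, 0.41 and 0.00. Immediate early genes that enzymatic dissociation is known to induce split by comparison. They were higher in 13 of 14 against Sertoli barcodes, but lower in 10 of 15 against macrophages and in 13 of 15 against mesenchymal barcodes. Fos, for example, had 859 CPM and log2 ratios of 5.26, -1.42 and -2.21. Sertoli barcodes were shallow, with a median of 1004.5 UMI, and had 562 CPM of Malat1, an RNA known to stay in the nucleus. Leydig, macrophage and mesenchymal barcodes had 17672, 7467 and 28343 CPM of Malat1. The part of these differences in the split was not tested. Of the cell cycle list, Mki67 was at 0 UMI, Top2a had 7 UMI and Cdk1 9 UMI.

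Few genes differed between the suffixes. Among 1213 genes with 100 or more UMI in 1 suffix of the Leydig gate, the highest suffix was in the median 1.27 times the lowest, and 39 genes (3.22%) reached 2-fold. Without suffix 1 the count was 23 and without suffix 4 it was 24. Insl3 was the only gate gene among them. The others with the largest ratios fell into serine protease inhibitors of 1 gene cluster, germ cell RNAs and a few genes known from other cell types.

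**Figure D4:**
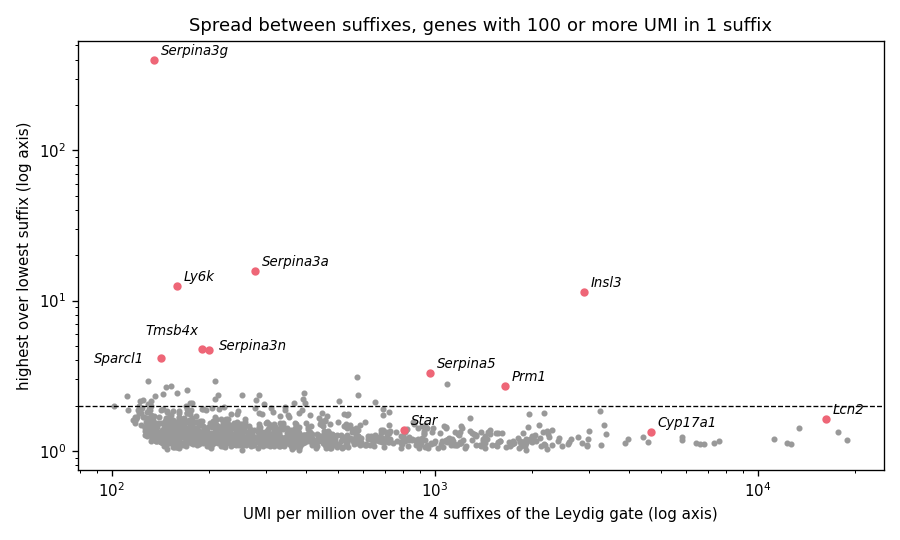
Highest over lowest suffix against the level in the Leydig gate, both on log axes, for 1213 genes with 100 or more UMI in 1 suffix. Most points lie below the dashed 2-fold line, and Serpina3g, Serpina3a, Ly6k and Insl3 lie above 10.

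Of the genes with large ratios, 4 serpins lie in a cluster on chromosome 12, from Serpina5 at chr12:104101113-104106137 to Serpina3n at chr12:104406729-104414329, and varied in different directions. Serpina3c, between them at chr12:104146382-104153870, had 318 CPM and a ratio of only 1.25, so the cluster did not vary as a whole. Serpina3g, at chr12:104236245-104241939, had 234 CPM under suffix 1 (95% interval 191 to 283), 555 under suffix 2 (478 to 641), 8.79 under suffix 3 (3.22 to 19.1) and 1.39 under suffix 4 (0.0352 to 7.75). It was thus present under suffixes 1 and 2, in 58.1% and 87.2% of Leydig barcodes, and nearly absent under suffixes 3 and 4, in 5.15% and 1.12%, with median depths from 7108.5 to 7948 UMI. In macrophage barcodes, at a median of 2414.5 UMI, the share was 2.73%. Serpina3a, at chr12:104112724-104121896, had 168, 24.1, 379 and 366 CPM, lowest under suffix 2. Serpina3n, an acute phase serpin, had 121, 57.3, 270 and 248 CPM. Serpina5, the protein C inhibitor, had 766, 365, 1150 and 1200 CPM. Serpina3a, Serpina3n and Serpina5 thus shared their lowest value under suffix 2, where Serpina3g was highest.

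In Sertoli barcodes Serpina3a followed another order, with 95.3, 253, 93.0 and 34.7 CPM, highest under suffix 2. Serpina3g was almost unmeasured there, at 0, 2.39, 0 and 0 CPM, and Serpina5 had 168, 208, 330 and 256 CPM. In mesenchymal barcodes Serpina3n had 96.9, 36.1, 247 and 184 CPM, the same order as in Leydig barcodes. The Serpina3 genes are a family of close copies in the mouse, so reads of 1 copy can be counted for another, and the directions above hold only for the counts as deposited. Leaving out suffix 2 brought the highest-to-lowest ratio of Serpina3a from 15.7 to 2.25, that of Serpina5 from 3.29 to 1.57 and that of Serpina3n from 4.70 to 2.22. For Serpina3g, leaving out suffix 2 or suffix 4 still left ratios of 168 and 63.1.

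Other genes with large ratios are known from other cell types, and the part of RNA from those cells in their ratios was not tested. Ly6k had 26.9, 211, 338 and 47.3 CPM but was found in only 33 Leydig barcodes, so few cells set its level. Tmsb4x, abundant in macrophages (15788 CPM), had 252, 60.3, 289 and 118 CPM, and the macrophage gate genes had the same order of suffixes, at 0.0200%, 0.00241%, 0.0374% and 0.00932% of UMI. Tnp1, Tnp2 and Prm1, which package sperm chromatin, were highest under suffix 1, at 1051, 1686 and 2630 CPM, as were the elongating spermatid genes as a whole. Without the 7 barcodes that also passed the spermatid gate their ratios dropped to 1.87, 1.64 and 1.54. Sparcl1, a matrix protein of mesenchymal barcodes (989 CPM), had 234, 235, 126 and 57.0 CPM and was found in 52.1% of Leydig barcodes. The mesenchymal gate genes had another order of suffixes, at 0.0252%, 0.0184%, 0.0182% and 0.0214% of Leydig UMI. Gpx3, also a gene of mesenchymal barcodes, was highest under suffix 1 with 269 CPM.

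The ribosomal protein genes that reached 2-fold, Rpl35, Rpl37 and Rpl23a, stood apart under suffix 1 in other cells as well. Rpl23a had 1107, 522, 538 and 545 CPM in Leydig barcodes, and in Sertoli barcodes 537, 337, 352 and 378 CPM. Rpl35 had 151, 341, 353 and 282 CPM in Leydig barcodes, and 175, 394, 330 and 247 CPM in macrophages. Rpl37 had 759, 461, 517 and 356 CPM in Leydig barcodes, and 657, 352, 380 and 263 CPM in macrophages. Suffix 1 was the highest for Rpl23a and Rpl37 and the lowest for Rpl35 in Leydig, Sertoli, macrophage and mesenchymal barcodes alike. The 3 genes were chosen after their values were seen.

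Depth separated a small group of Leydig barcodes from the rest. Under 2000 UMI were 41 barcodes (18, 3, 14 and 6 by suffix), with a median of 0.564% mitochondrial UMI, against 7.37% in the 266 deeper barcodes. Of 40 Leydig barcodes with under 2% mitochondrial UMI, 33 were in the shallow group. Their gate genes, which the limit of 1% holds up in sum, differed in both directions. Cyp17a1 had 4865 CPM against 4674 in the deeper 266 barcodes, Hsd17b3 965 against 914 and Hsd3b1 513 against 501. Cyp11a1 was higher, with 3797 against 2197, and Hsd3b6 (2443 against 4010) and Insl3 (1847 against 2914) were lower. RNAs known to stay in the nucleus were low, with 3489 against 17997 CPM for Malat1 and 123 against 2696 CPM for Neat1. Immediate early RNAs were also low: Jun had 0 UMI, where the rate of the deeper barcodes would give 28.4, and Junb had 1 UMI in place of 36.3. Spermatid RNA was high, with 3879 against 514 CPM of Ldhc and 9565 against 3114 CPM of Prm2. Per barcode, however, the median Prm2 count was 11 UMI in the shallow group against 8, 10 and 12 UMI in barcodes with 2000 to 5000, 5000 to 10000 and more than 10000 UMI.

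**Figure D5:**
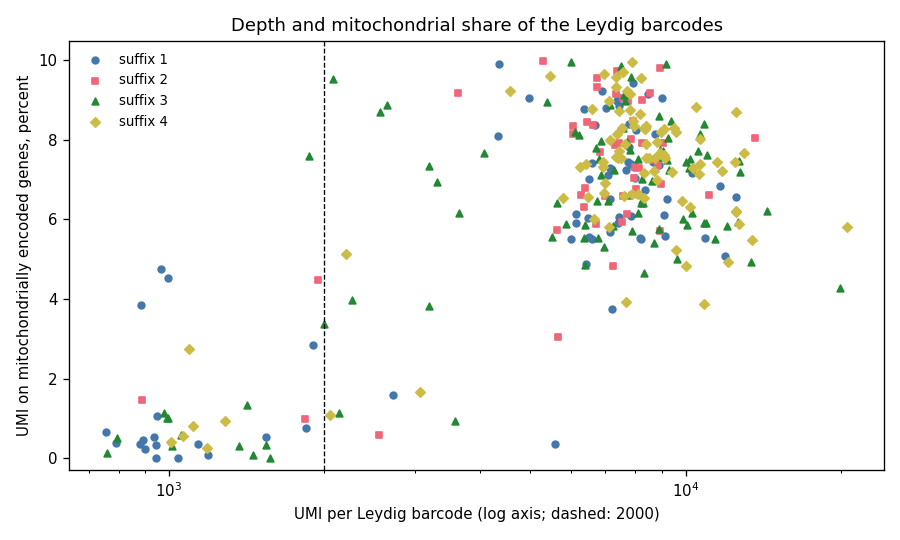
UMI per barcode (log axis) against the percentage of mitochondrially encoded UMI for the 307 Leydig barcodes, by suffix. Most of the 41 barcodes left of the dashed line at 2000 UMI lie below 2%, while deeper barcodes cluster around 7%.

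Phf7, the E3 ligase gene deleted in the tKO, and Brdt, a testis bromodomain gene, were at the low end in Leydig barcodes. Phf7 had 5, 12, 37 and 6 UMI by suffix (11.2, 36.2, 54.2 and 8.35 CPM), and the kept barcodes outside the gate had 79.0, 480, 648 and 107 CPM. Its ratio to Sertoli, macrophage and mesenchymal barcodes was -3.03, -2.29 and -2.00 log2. Brdt had 32 UMI (14.7 CPM), with ratios of -2.04, -1.56 and -1.73 log2. These ratios rest on few UMI. Without suffix 3 both genes fell under the minimum of 50 UMI against mesenchymal barcodes, at -2.24 and -1.41 log2, and with at most 5% mitochondrial UMI Phf7 was not called against macrophages (-1.13) or mesenchymal barcodes (-0.67). Whether the Phf7 and Brdt molecules were made by Leydig cells was not tested.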

How the data were processed

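Deposited were unnormalized UMI counts by gene and barcode, in 1 matrix for all 4 samples, made with Cell Ranger 3.0.2 per the file headers. The submitters' processing notes also name bcl2fastq 2.19.1.403 and the build mm10, while the annotation release was not given in the sources used here. Of the 28692 gene IDs, 28339 were found in GENCODE M21 (GRCm38), which gave positions. Counts were summed per gate and suffix with Python 3.11.15, numpy 2.4.6 and scipy 1.17.1. The comparison gates used 7 genes each under the same limits (5% of UMI for elongating spermatids). Suffixes with under 20 barcodes in a gate were left out of the direction rule. Intervals are exact Poisson, Clopper-Pearson or conditional binomial, at 95%. No test, doublet caller or clustering was run, so doublets may remain. The calling was tested on simulated data for each comparison, drawn as Poisson counts per gate and suffix at the same rates in every suffix. Of the genes made to differ 4-fold (2 log2), 99.0% of 99, 96.8% of 94 and 97.8% of 89 were called against Sertoli, macrophage and mesenchymal gates of 7114, 6156 and 5852 genes. Of the genes made to differ by 1.5 log2, 96.5%, 92.4% and 89.5% were called, and of unchanged genes 0.159%, 0.988% and 1.75%. The simulation held no spread between cells or suffixes beyond counting noise, so these shares do not give the rates of wrong calls in the real data. The rule for named genes took the gate genes, the 8 most abundant members of each list, the 25 leading genes, the 15 with the largest ratio between suffixes, and Phf7, Brdt and the redox and adrenal lists. Some genes of these lists enter the counts but are not reported here. The members and the lists were chosen with earlier results of these data known. Sequence came from RefSeq promoter windows. Alternatives covered the gate limits, the weighting of barcodes, the UMI minimum, the totals and each suffix left out. The age of postnatal day 63 and the genotypes are per the labels.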

Additional observations from a re-analysis of the deposited data

How the results depend on the processing

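With at most 5% mitochondrial UMI the gate held 62 barcodes in place of 307, and with gate genes at 2% or more it held 44. At 5% mitochondrial UMI the genes called higher and lower numbered 511 and 1647 against Sertoli barcodes, 377 and 517 against macrophages, and 277 and 304 against mesenchymal barcodes (2104, 2785, 1631, 1646, 1069 and 1212 as reported). With gate genes at 2% the genes called higher were 902, 702 and 553. A minimum of 200 UMI gave 853 and 1284, 736 and 500, and 570 and 330. A minimum of 10 UMI gave 3292 and 4243 against Sertoli barcodes, 2841 lower than in macrophages and 2100 lower than in mesenchymal barcodes. Equal weight for each barcode gave 797 genes lower than in mesenchymal barcodes. The count of genes that varied 2-fold between suffixes was 63 of 1431 with gate genes at 0.5%, 15 of 208 at 2%, 43 of 117 at 5% mitochondrial UMI (39 of 1213 as reported), 80 with equal weight for each barcode, and 12 of 386 with at least 300 UMI in 1 suffix. Fewer barcodes or genes enter under the stricter limits; the cause of the other moves was not tested.

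Leaving out each suffix in turn gave gates of 210 to 260 barcodes. The genes higher and lower numbered 1686 to 1936 and 2451 to 2494 against Sertoli barcodes, 1391 to 1526 and 1320 to 1466 against macrophages, and 964 to 1054 and 952 to 1145 against mesenchymal barcodes, and 23 to 26 genes varied 2-fold. The alternatives chosen after seeing the data, 2000 or more UMI and the gate without Insl3, gave 266 and 228 barcodes and stayed within 1.5 times of each count. Over 282 genes followed, none of the called ratios still tested changed sign in any alternative, and 114 such calls in 58 genes were lost, 38 of them at 5% mitochondrial UMI. A further 556 values of called genes fell under the UMI minimum of their alternative, 192 of them at 5% mitochondrial UMI and 30 without suffix 3. No paired analysis of the samples was possible because the suffixes carry no replicate number of the labels. Gates could be paired within a suffix, but no paired test was run and no result comes from a test. The direction of each call was required within every suffix that had enough barcodes. A level under 1.38 CPM, 3 UMI of the gate, is beyond the depth.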

Other observations

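Leydig products varied from cell to cell beyond counting noise among Leydig barcodes of equal depth. The 245 barcodes with 5000 or more UMI were thinned to 5000, and the Fano factor (variance over mean, near 1 for counting noise alone) was taken for 1549 genes with a mean of at least 0.5 UMI. Its median was 1.12, and 148 genes exceeded 2. Lcn2 had a factor of 40.3, with 26 UMI at the 10th percentile and 150.8 at the 90th. Ptgds had 34.8, with 17.4 and 130.2 UMI at the same percentiles. Gstm1 had 16.9 and Agt, the angiotensin precursor, 12.2, with 6.94% of barcodes at 0 Agt UMI and a highest count of 63. Klk1b21 had a factor of 7.44. Cyp17a1 had a factor of 9.66, from 7 UMI at the 10th percentile to 41.6 at the 90th. Cyp17a1 is a gate gene, so the rule that chose the barcodes partly shaped its spread. The uncharacterized gene 9230104L09Rik had 7.97, with 29.4% of barcodes at 0 and the 10% of barcodes with most of it holding 41.5% of its UMI. The Fano factor grows with the mean where the relative spread is constant, and the variance over the squared mean gave another order: 0.53 for Lcn2, 0.515 for Ptgds, 0.317 for Gstm1 and 0.434 for Cyp17a1, against 1.17 for Agt and 1.93 for 9230104L09Rik. These values pool the suffixes and are a description; the genes were chosen after their values were seen.

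The protamine RNAs Prm2 (81.1) and Prm1 (38.9) also varied widely, and the 10% of barcodes with most held 59.7% and 47.3% of their UMI. The median Leydig barcode at 5000 UMI had 6 Prm2 UMI and the highest 253.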
